A study of Mus musculus with 12 samples.

Results

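Genes of the integrated stress response and of serine synthesis, 10 of the 55335 genes in the count files, were followed through freshly isolated, cultured and compressed mouse muscle stem cells. They were taken by exact gene symbol: Atf4, Atf5, Ddit3, Ppp1r15a, Trib3, Chac1, Sesn2, Asns, Phgdh and Psat1. Muscle stem cells (MuSCs) are the Pax7-expressing cells that lie between a myofiber and its basal lamina and repair muscle after injury. All 12 libraries came from hindlimb cells of Pax7-ZsGreen mice, 3 to 6 months of age, sorted for bright ZsGreen, a fluorescent protein driven by Pax7 regulatory sequence. The 3 F libraries were lysed at the sorter with no culture. The 3 2d-U libraries were grown for 2 days and the 3 5d-U libraries for 5 days on plastic coated with Matrigel and fibronectin, in growth medium with serum and FGF, without compression. The 3 2+3d-C libraries had 2 days of the same uncompressed culture and then 3 days under a silicone film that compressed the cells from above, held over the dish by short pillars that set the height left for them. The labels do not say which libraries share animals or a sort, so the p-values below measure the spread between these libraries.

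The integrated stress response is the pathway by which kinases that sense misfolded protein, amino acid shortage, viral RNA or heme shortage phosphorylate the translation factor eIF2. General translation then drops, while the mRNA of the transcription factor Atf4 is translated more, so Atf4 mRNA is not a measure of Atf4 protein. Atf4 pairs with other bZIP factors, mainly of the C/EBP family, and switches on genes for amino acid supply, serine synthesis and, under lasting stress, cell death. Phgdh, Psat1 and Psph make serine from a glycolytic intermediate, and serine feeds the one-carbon units that dividing cells use for nucleotides.

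Start-site sequence is shown first because Atf4 and its partners bind a known composite element. The windows searched, from RefSeq on GRCm38.p6 (the same assembly as mm10), ran from 250 bases before to 50 after each start, and all 10 genes had at least 1. The composite letters TGATGNAA, read on both strands, were present at 3 of the 10 genes and in 3.97% of the 32851 windows of all genes. In the stretches below capitals mark the match, and Chac1 and Trib3 hold it on the opposite strand.
Chac1, chr2:119351038-119351067, plus strand: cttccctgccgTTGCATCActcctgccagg
Trib3, chr2:152344028-152344057, minus strand: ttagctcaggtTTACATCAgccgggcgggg
Asns, chr6:7693214-7693243, minus strand: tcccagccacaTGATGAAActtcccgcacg
The match covers positions -193 to -186 before the start of Chac1, in no annotated gene, and -23 to -16 before that of Asns, inside an exon of a longer Asns transcript. In Trib3 it lies after the RefSeq start, at positions 15 to 22. The palindromic cAMP response element TGACGTCA, which bZIP factors of the CREB and ATF families bind, was found at Ppp1r15a alone among the 10 and in 1.79% of all windows, at positions -12 to -5.
Ppp1r15a, chr7:45526262-45526291, minus strand: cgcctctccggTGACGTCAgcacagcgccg
The E-box CACGTG, in 7.15% of windows, and the endoplasmic reticulum (ER) stress element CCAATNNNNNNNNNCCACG, in 0.119%, were in none of the members' windows. These are matches of letters and not measured binding sites.

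Depth was 12540745 to 62424851 reads on genes per library, and every member had at least 40 reads in every library. Levels are given as RPKM (reads per kilobase of exon, scaled to library totals with TMM factors), so that genes of different length can be compared. Of 9 muscle stem cell markers, among them Pax7, Myf5 and Myod1, all 9 had more than 3 reads in every F and 2+3d-C library, and 7 to 9 in the uncompressed cultures. In all, 4 libraries stood apart. Replicates 4 and 5 of F held 5.03 and 7.13 reads per kb of exon on 2089 olfactory receptor, taste receptor and other genes that most tissues do not express, called silent families below, and replicates 1 and 6 of 5d-U held 3.81 and 0.635, against at most 0.22 in the rest. Reads at that density would make up at most 7.77% of any member's reads in a library, the highest value being that of Atf5 in replicate 5 of F. Replicate 1 of 5d-U also had the highest share of mitochondrial reads, 5.85%.

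**Figure D1:**
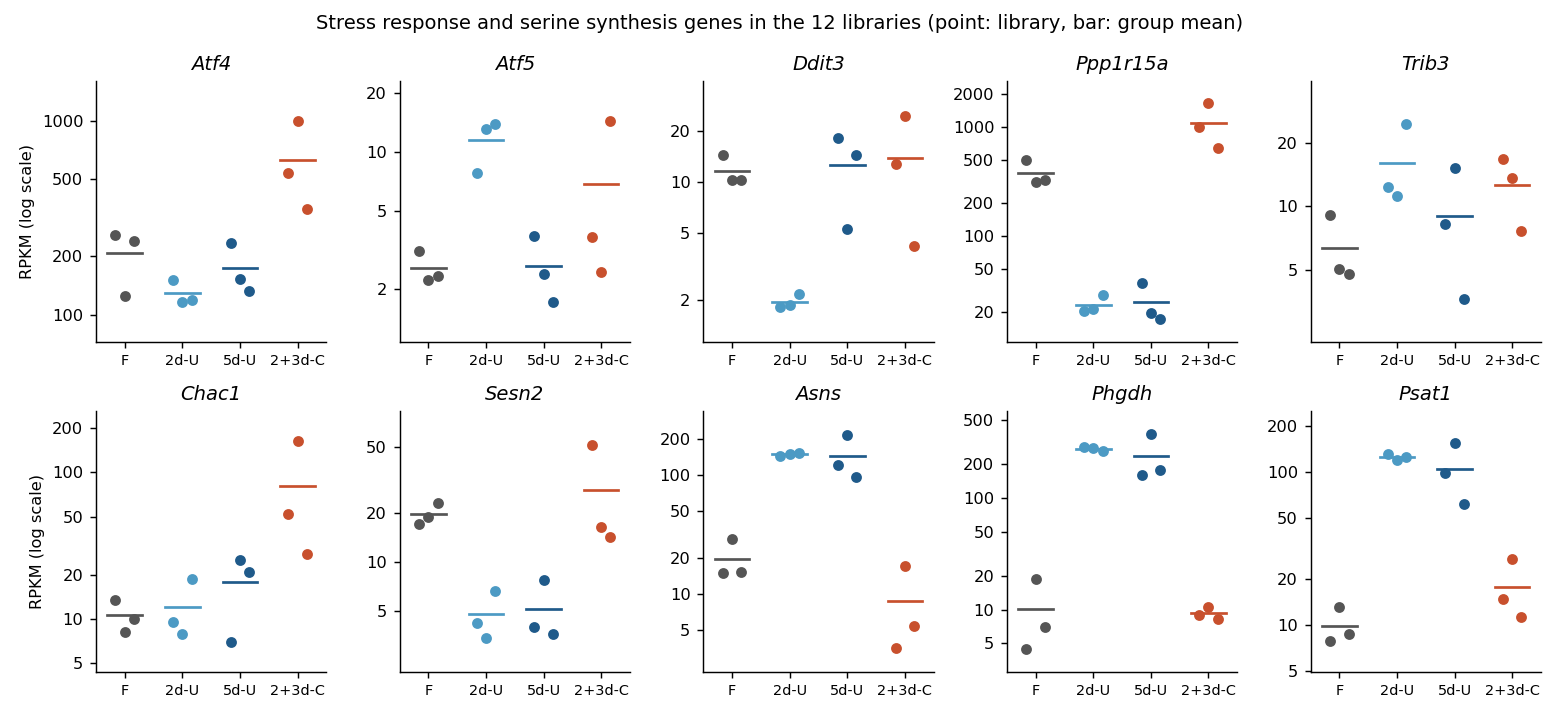
RPKM on a log axis of each of the 10 genes in the 12 libraries, by group. Points are libraries and bars are group means. Ppp1r15a ran from 17.2 to 37.3 RPKM in the uncompressed cultures and from 636 to 1637 in 2+3d-C, while Phgdh ran from 162 to 375 and from 8.31 to 10.6.

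In compressed cells the set split. Against 5d-U, which had the same days in culture without the device, Atf4, Ppp1r15a, Chac1 and Sesn2 rose, Asns, Phgdh and Psat1 fell, and Atf5, Ddit3 and Trib3 did not pass the test (edgeR quasi-likelihood test, adjusted p under 0.05 by Benjamini-Hochberg over the 22635 genes tested). Those are 4 higher and 3 lower of 10, where 9.14% of all tested genes were called higher and 13.4% lower. The median log2 fold change of the 10 was 0.94, beside -1.05 over all tested genes and -0.06 over the 10816 genes that averaged 5 CPM or more (CPM, read counts scaled to the library total). Against 2d-U, the state of the cells before the device was placed, Atf4, Ddit3, Ppp1r15a, Chac1 and Sesn2 rose and Asns, Phgdh and Psat1 fell, 5 higher and 3 lower, where 16% and 8.63% of all genes were called. Against F, 2 of the 10 were called, Atf4 and Chac1, both higher, where 1.94% of all genes were called higher and 4.47% lower. With 1 library left out, this last count was 0 with edgeR without F 4 (4 at an unadjusted p under 0.05) or F 5, 1 higher without 2d-U 1, 2d-U 2, 2d-U 3, 5d-U 2 or 2+3d-C 4, 1 lower without 2+3d-C 5, and 3 higher without F 1 or 5d-U 1. The 3 comparisons share the 2+3d-C libraries.

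**Figure D2:**
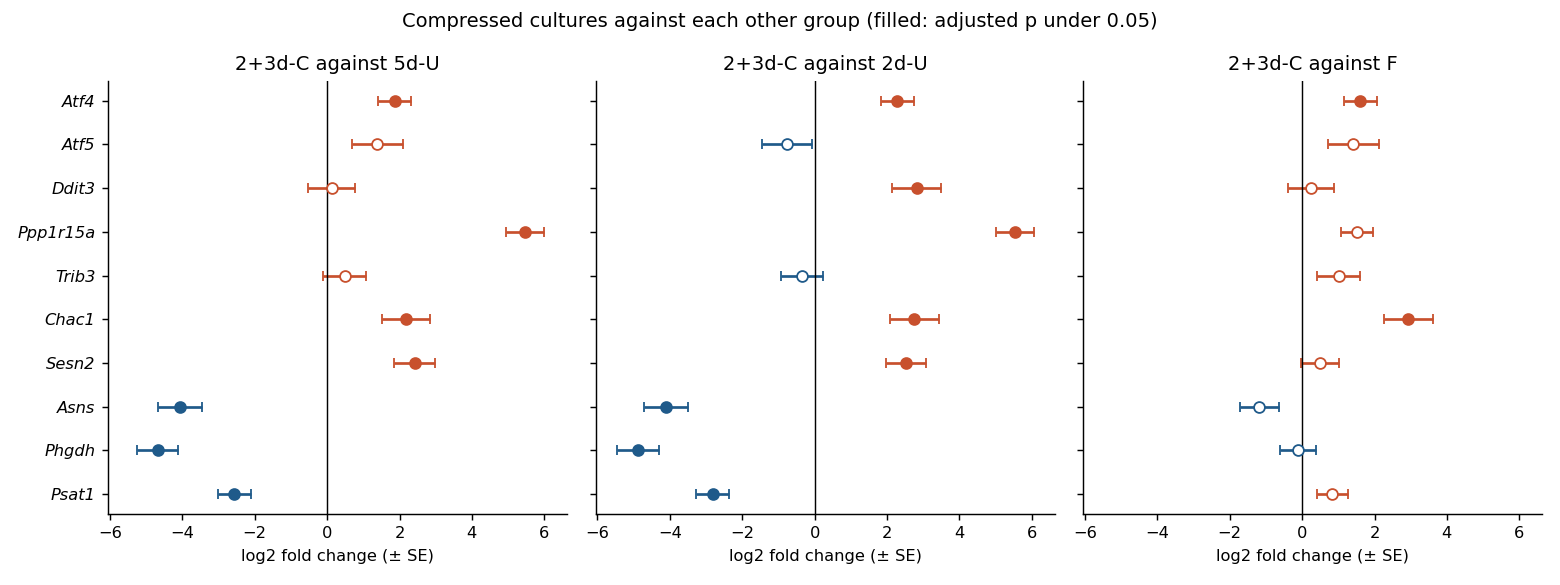
log2 fold change with its standard error for each gene in 2+3d-C against 5d-U, 2d-U and F. Filled points have an adjusted p under 0.05. Asns, Phgdh and Psat1 lie left of 0 against both uncompressed cultures, at -4.06, -4.68 and -2.56 against 5d-U, and at -1.18, -0.12 and 0.84 against F, where none was called.

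Atf4 (ENSMUSG00000042406.8, mm10 chr15:80255184-80257541), the factor that carries the response into transcription, was abundant in every group. Replicates 1, 4 and 5 of F gave 258, 125 and 238 RPKM, replicates 1, 2 and 3 of 2d-U gave 151, 116 and 119, replicates 1, 2 and 6 of 5d-U gave 234, 153 and 132, and replicates 4, 5 and 10 of 2+3d-C gave 538, 999 and 350. Every compressed library lay above all 9 others, and the other groups overlapped one another. The rise was 3.64-fold against 5d-U (log2 1.86 ± 0.46 SE, edgeR adjusted p = 0.00954) and 4.89-fold against 2d-U (log2 2.29 ± 0.46, edgeR adjusted p = 0.00279). Against F it was 3.04-fold with an edgeR adjusted p of 0.0492, close to the threshold. That call was lost without replicate 4 of F (log2 1.34, edgeR adjusted p = 0.18), and also without replicate 5 of F or replicates 4 or 5 of 2+3d-C, where edgeR adjusted p was 0.119, 0.0553 and 0.159. In the fit without the 4 libraries with silent-family reads, which leaves 1 library each in F and 5d-U, the value against 5d-U was log2 2.04 with an edgeR adjusted p of 0.117, and with a term for those libraries it was log2 1.76 (edgeR adjusted p = 0.0663).

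Atf5 (ENSMUSG00000038539.15, chr7:44812256-44816658), a close relative of Atf4 that is likewise controlled through translation, followed another course. The F libraries gave 3.13, 2.21 and 2.32 RPKM, 2d-U gave 7.77, 13.0 and 13.8, 5d-U gave 3.73, 2.38 and 1.72 and compressed cells gave 3.65, 2.42 and 14.3, in the same order of replicates. All 3 2d-U libraries were above all F and 5d-U libraries, while the compressed libraries spread from the level of F to that of 2d-U. Only the rise from F to 2d-U was called (4.52-fold, log2 2.17 ± 0.72, edgeR adjusted p = 0.0303). It was lost when any of the libraries F 4, F 5, 2d-U 1, 2d-U 2 or 2d-U 3 was left out, with edgeR adjusted p between 0.0518 and 0.0914. In 2+3d-C against 5d-U the edgeR adjusted p was 0.138, and replicate 10 alone held the higher level.

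Ddit3 (ENSMUSG00000025408.15, chr10:127290774-127296288) encodes CHOP, which drives cell death under lasting ER stress. Fresh cells gave 14.4, 10.2 and 10.2 RPKM, 2d-U gave 1.82, 1.87 and 2.16, 5d-U gave 18.2, 5.27 and 14.4 and compressed cells gave 12.6, 24.5 and 4.18. The 2d-U libraries were the 3 lowest of the 12, and the other groups overlapped. From F to 2d-U it fell 5.95-fold (log2 -2.57 ± 0.68, edgeR adjusted p = 0.0112), and in 2+3d-C it was 7.04-fold above 2d-U (log2 2.82 ± 0.69, edgeR adjusted p = 0.00888). The value of 5d-U over 2d-U was of like size, log2 2.69 ± 0.69, but missed the threshold with an edgeR adjusted p of 0.0548. Between 2+3d-C and 5d-U it was log2 0.12 ± 0.64. Part of its exons, 10.9% of the bases, is shared with other annotated genes, among them Mars and a second row with the symbol Ddit3. The counting did not use strand and left out reads on several genes, so reads there could not be assigned. The second Ddit3 row, ENSMUSG00000116429.1, lies wholly within the first. Its 0 reads in every library therefore followed from the counting and do not measure its expression.

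Ppp1r15a (ENSMUSG00000040435.12, chr7:45522916-45526268) encodes GADD34, the inducible phosphatase subunit that removes the phosphate from eIF2 and so ends the response. Fresh cells gave 496, 312 and 326 RPKM. In culture 2d-U gave 20.4, 21.5 and 28.5 and 5d-U gave 37.3, 19.8 and 17.2. Under compression the levels were 990, 1637 and 636. The 3 ranges, compressed above F above uncompressed, did not overlap, and the 2 uncompressed groups did not differ beyond their spread (log2 0.08 ± 0.44). It had the largest rise of the 10 genes in compressed cells, 43.9-fold against 5d-U (log2 5.46 ± 0.53, edgeR adjusted p = 1.52e-05) and 46.3-fold against 2d-U (log2 5.53 ± 0.53, edgeR adjusted p = 1.23e-05), and this call stood under all 11 alternative settings in both comparisons. Between F and culture it fell 16.1-fold by 2d-U (log2 -4.01 ± 0.49, edgeR adjusted p = 8.86e-05). Against F the compressed value was 2.88-fold with an edgeR adjusted p of 0.054, not called. In the 6 uncompressed cultures Ppp1r15a mRNA was 0.13 to 0.239 of the Atf4 level within the same library, in F 1.37 to 2.5 times and in 2+3d-C 1.64 to 1.84 times that level.

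Other transcripts were also higher in F and 2+3d-C than in the uncompressed cultures. The 13 genes of an early response list, which are induced within an hour by serum, stress or tissue dissociation, summed to between 15800 and 22490 CPM for F, 693 and 910 for 2d-U, 769 and 1066 for 5d-U, and 14820 and 28370 for 2+3d-C. All 13 rose from 5d-U to 2+3d-C, among them Fos (log2 7.30), Zfp36 (7.09) and Nr4a1 (7.42), and the median against F was -0.01. Of the markers of other cells that a dissociated muscle can hold, 4 lists were higher in every F and 2+3d-C library than in any uncompressed culture. The 5 erythroid genes summed to 160 to 672 CPM in F, at most 0.391 in the uncompressed cultures and 27.3 to 317 in 2+3d-C, and the 7 endothelial genes to 969 to 1443, 7.80 to 37.3 and 122 to 248. Fibroadipogenic markers summed to 2281 to 7124 CPM in F, 0.704 to 60.9 in the uncompressed cultures and 449 to 986 in 2+3d-C. Glial markers summed to 429 to 735, 2.17 to 10.9 and 183 to 610 CPM in that order. Most abundant in 2+3d-C were Dpt and Dcn (means 276.5 and 259) and, of the glial genes, Mbp (270). Pdgfra, Pi16 and Smoc2 averaged 2.94, 0.67 and 18.2 CPM there, 1.72, 0.51 and 10.7 in 5d-U, and 92.0, 108 and 1030 in F. Against 5d-U all 5 erythroid and 5 of the 7 endothelial genes were called higher and 0 lower. Of the fibroadipogenic and glial genes 3 of 7 and 3 of 5 were called higher and 0 lower (9.14% and 13.4% of all tested genes). The sums of the other 3 lists overlapped between uncompressed and compressed cells. Smooth muscle and pericyte markers summed to 723 to 992 CPM in F, 61.8 to 740 in the uncompressed cultures and 433 to 793 in 2+3d-C. In that order the 9 immune markers summed to 626 to 2726, 0.818 to 168 and 5.47 to 178. Mature myofiber genes summed to 42.4 to 2827, 50.7 to 2457 and 93.4 to 194. Yet 5 of the 7 smooth muscle and pericyte genes were called higher than in 5d-U and 0 lower. Acta2, the most abundant of them in 5d-U, averaged 464.5 CPM there and 227 in 2+3d-C. Of the 8 mature myofiber genes 1 was called higher than in 5d-U and 2 lower (9.14% and 13.4% of all tested genes). Among the 9 immune markers, Ptprc and Adgre1 had 0 reads in every compressed library. Lyz2, S100a9 and S100a8 averaged 34.4, 29.0 and 19.1 CPM there. Against 5d-U 0 of the 9 were called higher and 1 lower (9.14% and 13.4% of all tested genes). The muscle stem cell markers summed to 14820 to 16010 CPM in 2+3d-C and 1978 to 6396 elsewhere. Most abundant in 2+3d-C were Myod1, whose protein the paper uses to mark progenitors and committed cells, and Sdc4 (means 5918 and 4838). Against 5d-U 6 of these 9 were called higher and 0 lower, and Itga7 averaged 311 CPM beside 428 in 2d-U. The part of these cells in the members' values was not tested, and in bulk RNA fewer cells of a type and less RNA per cell cannot be told apart.

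Trib3 (ENSMUSG00000032715.9, chr2:152337422-152344032), a pseudokinase induced by Atf4 and CHOP that restrains them in turn, was called in none of the 3 comparisons with 2+3d-C. The F libraries gave 9.15, 5.06 and 4.77 RPKM, 2d-U gave 12.5, 11.2 and 24.8, 5d-U gave 8.26, 15.2 and 3.63 and compressed cells gave 16.8, 13.6 and 7.64. The 2d-U libraries lay above the F libraries and all other pairs of groups overlapped. Compressed against 5d-U the value was log2 0.49 ± 0.59 (edgeR adjusted p = 0.529), and its sign depended on the setting.

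Chac1 (ENSMUSG00000027313.3, chr2:119351229-119354381), which degrades glutathione and is widely used as a transcript marker of this pathway, rose with Atf4 in compressed cells. Fresh cells gave 13.6, 8.17 and 10.0 RPKM, 2d-U gave 9.57, 7.93 and 18.8, 5d-U gave 7.00, 25.3 and 21.0 and compressed cells gave 52.4, 163 and 28.0. All compressed libraries were above the other 9, replicate 10 by the smallest margin, and the other 3 groups overlapped. The rises were 4.56-fold against 5d-U (log2 2.19 ± 0.66, edgeR adjusted p = 0.0284), 6.71-fold against 2d-U (log2 2.75 ± 0.68, edgeR adjusted p = 0.0092) and 7.66-fold against F (log2 2.94 ± 0.68, edgeR adjusted p = 0.0266). The first call was lost without 5d-U 1, 5d-U 6 or 2+3d-C 5, with edgeR adjusted p of 0.0842, 0.0635 and 0.163, and the value without 2+3d-C 5 was log2 1.17. It was also lost with the term for the libraries with silent-family reads (log2 1.77, edgeR adjusted p = 0.161) and in the fit without them (log2 1.68, edgeR adjusted p = 0.412). The call against F was lost without F 4, F 5 or 2+3d-C 5, with edgeR adjusted p between 0.0936 and 0.107. Among the 10 genes its profile over the 12 libraries lay closest to that of Atf4, with a root mean square difference of 0.80 in mean-centred log2 CPM.

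Sesn2 (ENSMUSG00000028893.8, chr4:132492032-132510501), a leucine sensor that holds back mTORC1, shared the high levels of Ppp1r15a in both F and compressed cells. The F libraries gave 17.1, 18.8 and 22.8 RPKM, 2d-U gave 4.25, 3.42 and 6.69, 5d-U gave 4.00, 7.81 and 3.61 and compressed cells gave 51.8, 16.4 and 14.2. The uncompressed libraries were all below the F and the compressed ones, which overlapped each other. It was 5.35-fold above 5d-U in compressed cells (log2 2.42 ± 0.56, edgeR adjusted p = 0.00679) and 5.74-fold higher than in 2d-U (edgeR adjusted p = 0.00506). Without replicate 4 of 2+3d-C the first value was log2 1.56 with an edgeR adjusted p of 0.0514, and without the 4 libraries with silent-family reads it was log2 1.82 (edgeR adjusted p = 0.308). From F it fell 4.08-fold by 2d-U (edgeR adjusted p = 0.0127) and was 3.80-fold lower in 5d-U (edgeR adjusted p = 0.0211). Each of these calls was lost on leaving out single libraries: 2d-U 1 or 2d-U 2 for the former (edgeR adjusted p 0.0523 and 0.0607), and F 5, 5d-U 1 or 5d-U 6 for the latter (edgeR adjusted p 0.0713, 0.0757 and 0.101).

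Asns (ENSMUSG00000029752.12, chr6:7675169-7693254), asparagine synthetase, is a classical Atf4 target in amino acid shortage, yet it went the opposite way from Atf4, Chac1 and Sesn2. Fresh cells gave 14.9, 28.7 and 15.2 RPKM, 2d-U gave 143, 152 and 155, 5d-U gave 122, 215 and 96.3 and compressed cells gave 3.53, 17.2 and 5.35. The 6 uncompressed cultures were all above the 6 other libraries, and 2d-U and 5d-U did not differ beyond their spread (log2 -0.05 ± 0.54). In compressed cells Asns was 16.7-fold lower than in 5d-U (log2 -4.06 ± 0.61, edgeR adjusted p = 0.000385) and 17.3-fold lower than in 2d-U (log2 -4.12 ± 0.61, edgeR adjusted p = 0.000297). From F to 2d-U it rose 7.64-fold (log2 2.93 ± 0.58, edgeR adjusted p = 0.0021). Compressed against F the value was log2 -1.18 ± 0.55 (edgeR adjusted p = 0.133). Without replicate 5 of 2+3d-C it was log2 -2.13 and called, with an edgeR adjusted p of 0.0348. Within a library, Atf4 mRNA was 0.71 to 1.92 times the Asns level in the uncompressed cultures, 4.34 to 17.3 times in F and 58.1 to 152 times in 2+3d-C.

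**Figure D3:**
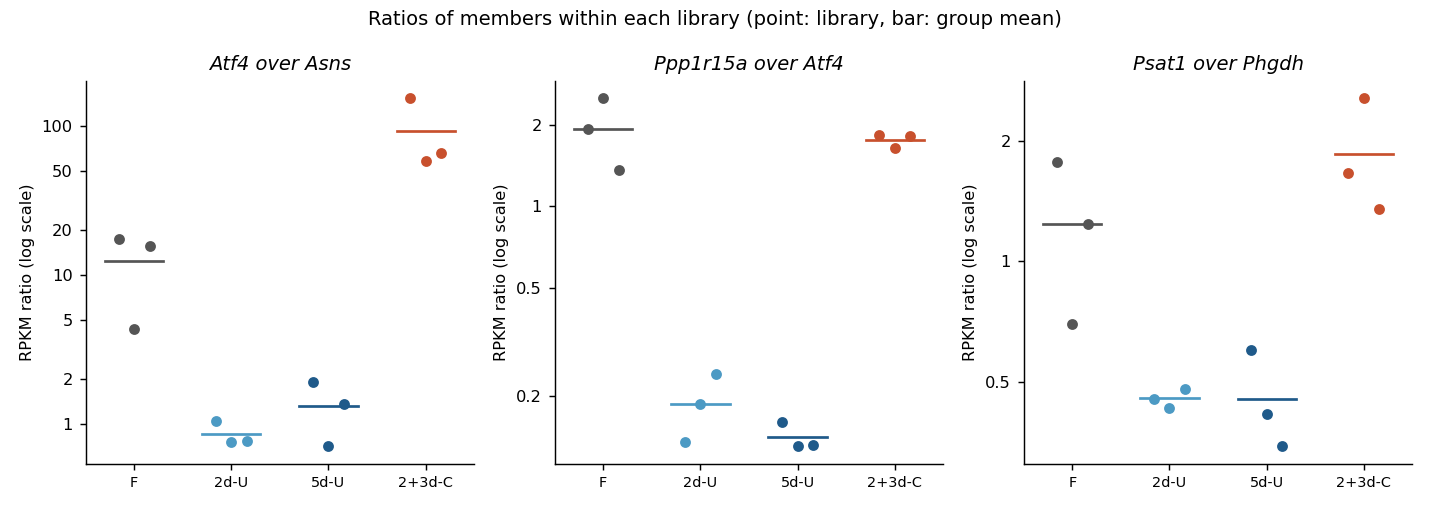
Ratio of the RPKM of 2 members within each library, on a log axis, for Atf4 over Asns, Ppp1r15a over Atf4 and Psat1 over Phgdh. Points are libraries and bars are group means. Atf4 over Asns is 0.71 to 1.92 in uncompressed cultures and 58.1 to 152 in 2+3d-C, with F between at 4.34 to 17.3.

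Phgdh (ENSMUSG00000053398.11, chr3:98313170-98339990), the first enzyme of serine synthesis, had the largest fall. The F libraries gave 4.46, 18.7 and 7.09 RPKM, 2d-U gave 287, 278 and 262, 5d-U gave 162, 375 and 180 and compressed cells gave 8.95, 10.6 and 8.31. The compressed libraries lay within the range of F, and every uncompressed culture was far above both. The fall was 25.7-fold against 5d-U (log2 -4.68 ± 0.58, edgeR adjusted p = 8.82e-05) and 29.7-fold against 2d-U (log2 -4.89 ± 0.58, edgeR adjusted p = 5.74e-05), and these calls stood under all 11 alternative settings. From F it had risen 27.3-fold by 2d-U (log2 4.77 ± 0.58, edgeR adjusted p = 8.12e-05). Compressed against F the value was log2 -0.12 ± 0.50 (edgeR adjusted p = 0.891).

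Psat1 (ENSMUSG00000024640.9, chr19:15904678-15947337), the aminotransferase that follows Phgdh in the pathway, was likewise highest in the uncompressed cultures. Fresh cells gave 7.92, 13.0 and 8.80 RPKM, 2d-U gave 130, 120 and 126, 5d-U gave 97.7, 155 and 61.9 and compressed cells gave 14.9, 27.2 and 11.3. Again the 6 uncompressed cultures lay above the 6 other libraries, and F and 2+3d-C overlapped. The fall was smaller than that of Phgdh, 5.92-fold against 5d-U (log2 -2.56 ± 0.46, edgeR adjusted p = 0.00132) and 7.07-fold against 2d-U (edgeR adjusted p = 0.000614). From F to 2d-U the rise was 12.6-fold (edgeR adjusted p = 0.000142). The ratio of Psat1 to Phgdh was 0.345 to 0.602 in the uncompressed cultures, 0.696 to 1.78 in F and 1.35 to 2.56 in 2+3d-C. The difference between the falls of the 2 genes was not tested.

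Asns, Phgdh and Psat1 were at their compressed or fresh level in 6 libraries and at their culture level in the other 6, and the pairwise differences between their profiles, 0.89 to 0.95 in root mean square log2 CPM, were among the smallest between members. Over the step from F to 2d-U, 4 of the 10 genes rose (Atf5, Asns, Phgdh and Psat1) and 3 fell (Ddit3, Sesn2 and Ppp1r15a), where 10.6% of all genes were called higher and 33.3% lower. From F to 5d-U, 3 rose (Asns, Phgdh and Psat1) and 2 fell (Sesn2 and Ppp1r15a), where 11.6% and 8.9% of all genes were called. Between 2d-U and 5d-U none of the 10 passed with edgeR, where 1.87% of genes were called higher and 0.243% lower. At an unadjusted p under 0.05 there were 2, and DESeq2 called 2, Ddit3 higher and Atf5 lower. Without 5d-U 2, 2+3d-C 4, 2+3d-C 5 or 2+3d-C 10, edgeR called 1 of the 10 in that comparison.

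The other genes of serine and one-carbon metabolism were measured as a list of 11. Against 5d-U, 6 of the 11 fell in compressed cells and 1 rose, with a median log2 fold change of -1.70. Of all tested genes 13.4% were called lower and 9.14% higher. Psph, which completes serine synthesis, fell from a mean of 220 to 21.1 CPM (log2 -3.38 ± 0.55, edgeR adjusted p = 0.000686). Shmt2, which turns serine into glycine and a one-carbon unit in the mitochondrion, fell by 1.99 on the log2 scale, Mthfd1l by 2.28 and Mthfd1 by 1.70. Mthfd2, the mitochondrial folate enzyme often listed with Atf4 targets, had log2 -0.22 ± 0.42. With the replicate number as a block, 1 of the 11 was called lower and the others were not, and without 5d-U 2 there were 4 called, all lower. Against F the median was 0.22.

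Genes that stand upstream of Atf4 or beside it were also measured as lists. In 2+3d-C against 5d-U, 9.14% of all tested genes were called higher and 13.4% lower. Of 11 genes for eIF2, its exchange factor and its kinases and phosphatase, Ppp1r15b rose (log2 4.04 ± 0.59, edgeR adjusted p = 0.000337). It encodes the constitutive alternative to the Ppp1r15a product as subunit of the eIF2 phosphatase. Eif2b4, a subunit of the eIF2 exchange factor, fell (log2 -2.17 ± 0.50, edgeR adjusted p = 0.0069), and the median of the 11 was -0.46. With 1 higher and 1 lower, the shares of the 11 were close to those of all tested genes. DESeq2 called 3 of the 11 higher and 1 lower, and edgeR without 2+3d-C 5 called 2 higher and 2 lower. Of 5 genes listed as bZIP factors or their partners, 3 rose. They were Atf3 (log2 6.64), a stress-induced repressor, Cebpb (5.35), an activator of the C/EBP family, and Nupr1 (1.89), which is not itself a bZIP factor. The number called was 2 without F 5, 5d-U 1, 5d-U 2 or 2+3d-C 5, and 4 without F 1, 5d-U 6 or 2+3d-C 10. Of 5 relatives of the members, Trib1, a pseudokinase like Trib3, rose by 7.31 and Chac2, the constitutive counterpart of Chac1, fell by 2.47 on the log2 scale. With 5d-U 6, 2+3d-C 4 or 2+3d-C 10 left out, 1 relative was called higher and none lower.

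Of 9 amino acid transporters, 5 rose from 5d-U to 2+3d-C and 4 did not pass the test, with a median log2 fold change of 1.80. Of all tested genes 9.14% were called higher and 13.4% lower in this comparison. Slc7a5 and Slc3a2, the light and the heavy chain of the carrier for large neutral amino acids, rose by 4.24 ± 0.74 and 2.25 ± 0.46 on the log2 scale (edgeR adjusted p = 0.0011 and 0.00338), Slc7a1, the carrier of arginine and lysine, by 2.09, and Slc38a2, a carrier of small neutral amino acids, by 2.30. With the replicate number as a block 1 was called higher and 1 lower, and in the fit without the 4 libraries with silent-family reads none of the 9 was called with edgeR and 6 had an unadjusted p under 0.05. Of 12 other reported Atf4 targets, Cbs, which uses serine to make cystathionine, and Vldlr, a lipoprotein receptor, rose (log2 5.30 and 4.60), Gpt2, which makes alanine, fell by 4.21 on the log2 scale, and the other 9 were not called. Their median was -0.76. Of 20 tRNA synthetases, 2 rose and 3 fell, shares close to the 9.14% and 13.4% of all tested genes, with a median of 0.02. The number of synthetases called was 0 with the replicate block in edgeR, where 1 had an unadjusted p under 0.05, and 8 with DESeq2, and it was 2 without 2+3d-C 4 and 1 without 2+3d-C 10.

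Of 18 genes of the unfolded protein response and ER chaperones, 12 were called higher in compressed cells than in 5d-U, with a median log2 fold change of 2.23, and the other 6 did not pass the test. Those called against 5d-U included Hspa5, the main ER chaperone (log2 3.21 ± 0.50, edgeR adjusted p = 0.000529), and Xbp1, the transcription factor spliced by Ire1 (3.18). Herpud1 (3.51) and Syvn1 (4.23), both of ER-associated degradation, were also among them. Against 2d-U 10 of the 18 were called higher. Of all tested genes 9.14% were called higher against 5d-U and 16% against 2d-U. The list summed to at least 24490 CPM in each compressed library and to at most 8428 in each uncompressed culture, with F spread from 9506 to 27290. Against F none of the 18 was called with edgeR, 9 had an unadjusted p under 0.05, and DESeq2 called 4 higher. With edgeR 7 were higher than in F without F 1, 3 without 5d-U 1, 2 without 2+3d-C 4, and 1 without 5d-U 2 or 5d-U 6. Without the 4 libraries with silent-family reads the count against 5d-U was 7.

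**Figure D4:**
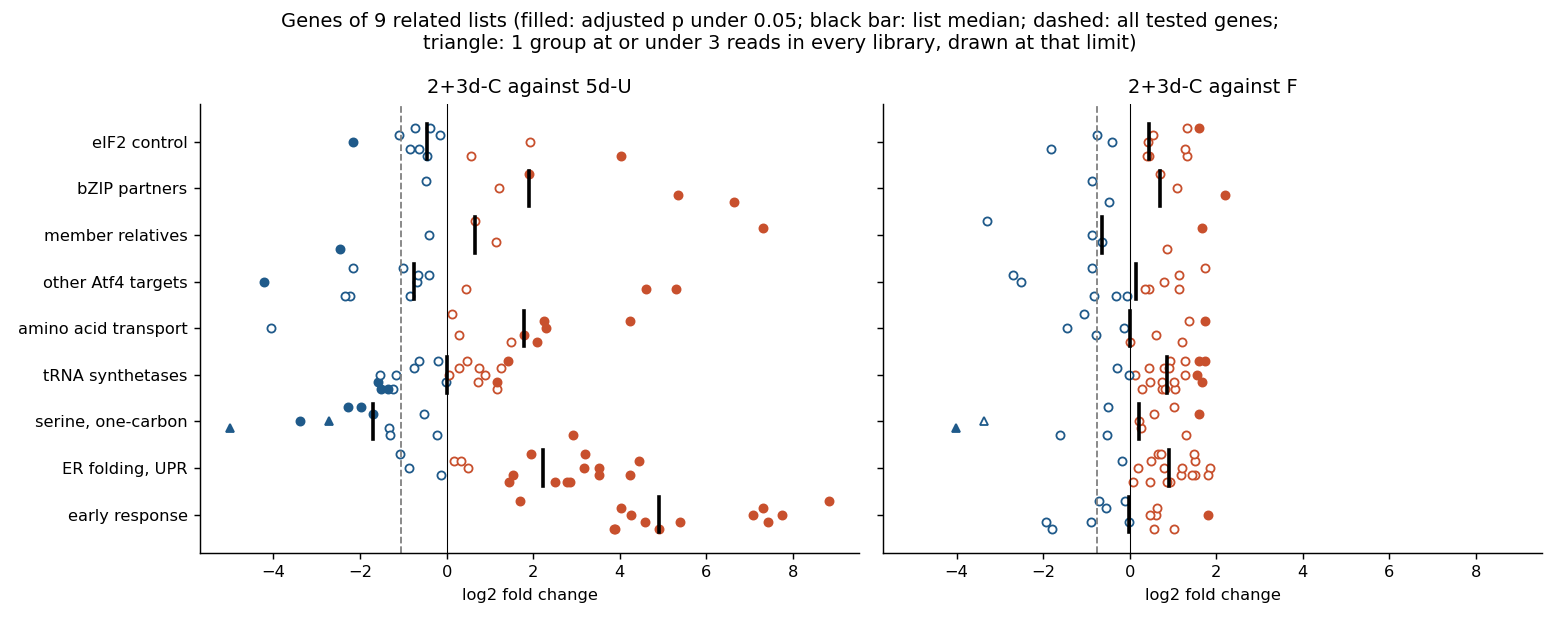
log2 fold change of every gene in 9 lists, comparing 2+3d-C with 5d-U at left and with F at right. Filled points have an adjusted p under 0.05, the black bar is the list median, the dashed line the median of all tested genes, and triangles are genes at or under 3 reads in every library of 1 group, drawn at that limit. Against 5d-U the medians run from -1.70 for serine and one-carbon genes to 4.91 for early response genes, and against F from -0.64 to 0.90.

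The genes with the most similar profile were sought among 10815 tested genes averaging 5 CPM or more, by the root mean square difference of mean-centred log2 CPM over the 12 libraries. For Atf4 they were Slc3a2 (0.21), Rsrp1 (0.33) and Bag5 (0.37). Ppp1r15a had Nfkb1 (0.43), Tmbim1 (0.44) and Cebpb (0.47), Sesn2 had Yap1 (0.30), Slc35f5 (0.35) and Zfp516 (0.39), and Chac1 had Myod1 (0.55), Tnfrsf12a (0.63) and Rnh1 (0.64). For Phgdh they were Nt5dc2 (0.53), Ckap2 (0.53) and Galk1 (0.57), for Psat1 Ash2l (0.41), Mrps27 (0.41) and Plpp2 (0.41), and for Asns Tpm1 (0.54), Plin2 (0.59) and Pip4p2 (0.63). Atf5 lay nearest Rad21 (0.46), Bag6 (0.46) and Syde1 (0.47), Trib3 nearest Qars (0.38), Abhd17c (0.40) and Cdca4 (0.41), and Ddit3 nearest Chd6 (0.44), Vgll4 (0.55) and Ankrd12 (0.56). For no member was the gene with the nearest profile another member. Since the other members were few among the 10815 candidates, this does not show whether members vary together.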

How the data were processed

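RNA of 12 libraries (3 per group) was amplified with SMART-seq v4 and sequenced as 75-base single-end reads. The deposited values are raw counts per gene: the authors ran the nf-core RNA-seq pipeline on mm10 and counted exon reads with featureCounts 1.6.4 on GENCODE genes without strand, and by its default reads that map to several places or genes were left out. Groups were taken from the labels. Genes were kept by filterByExpr (22635 of 55335, all 10 members among them), scaled by TMM and fitted in 1 edgeR 4.0.16 quasi-likelihood model over the 4 groups (R 4.3.3), with 6 contrasts and adjustment by Benjamini-Hochberg. Standard errors are the fold change divided by the square root of F. RPKM used the exon length in the files. DESeq2 1.42.0, other scalings and filters, a replicate block, terms for the reads on silent families, and each library left out were alternatives. A fit without 4 libraries was added after seeing the data. The code was tested on simulated data. The study's own count test was DESeq2. The merged table was not used.

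The members and all gene lists were chosen with earlier results of these data known. Named genes are the 10 members, in each list the 3 with the smallest p in 2+3d-C against 5d-U and the 3 with the highest mean CPM, and the 3 nearest profiles per member. Of these, the text names those that passed the test or bear on a member. Depth limits single libraries little, since the lowest member count was 40 reads.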

Additional observations from a re-analysis of the deposited data

How the results depend on the processing

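Against 5d-U and 2d-U, the calls of Ppp1r15a, Asns and Phgdh in compressed cells stood in all 11 alternative settings. Of 10 members, 7 were called against 5d-U, 5 with the silent-family term, 4 with the replicate block, 4 in the fit without the 4 libraries with silent-family reads, and 6 to 7 with single libraries left out; 8 were called against 2d-U, 4 with the replicate block and 8 in every fit without 1 library. Against F, where 2 were called, library totals without TMM, RLE factors, a filter at a mean of 5 CPM, the 2 groups alone and subtraction of silent-family reads each gave 1, the silent-family term and the fit without those 4 libraries each gave 0 (3 and 1 at an unadjusted p under 0.05), and leaving out single libraries gave 0 to 3. For 5d-U against 2d-U the count of 0 became 2 with DESeq2 and 2 with the 2 groups alone, and 0 to 1 with libraries left out. For 2d-U against F, 7 became 4 with the replicate block, 3 in the fit without the 4 libraries and 5 to 7 with libraries left out. For 5d-U against F, 5 became 3 without the 4 libraries and 4 to 5 with libraries left out. The labels do not say whether the replicate numbers pair libraries. Deviations of same-numbered libraries from their group means correlated at -0.33 to 0.10. With 3 libraries per group this cannot decide whether they share a sort. The replicate block also leaves fewer residual degrees of freedom. The cause of the changes between settings was not tested. Another scaling moved the median of all genes by up to -0.52 (log2).

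Signs turned only for values that were not called. Ddit3 against 5d-U was -0.17 without TMM and -0.59 to 0.55 with libraries left out, and against F -0.33 without TMM, -0.056 without the 4 libraries and -0.45 to 0.68 with single ones left out. Trib3 against 5d-U was -0.12 with the silent-family term and -0.26 without the 4 libraries, and against 2d-U 1.42 with the replicate block and -0.62 to 0.10 with libraries left out. Against F, Sesn2 was -0.35 to 0.82 and Phgdh -0.61 to 0.69 with libraries left out, the low Sesn2 value without 2+3d-C 4 and the high Phgdh value without F 4, and Phgdh was 1.07 without the 4 libraries. Of the values for single members over these settings, 512 kept their direction and their side of the threshold, 40 lost a call, 8 gained one and 12 changed sign. These counts cover all comparisons with 2+3d-C, and elsewhere only members called under some setting. For libraries left out they take only the lowest and the highest value, and values never called count as kept.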
